A study of Mus musculus with 6 samples.

Results

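Genes of the desmosome, the tight junction and the gap junction, the main contacts that join neighbouring epithelial cells, were examined in whole back skin of newborn mice with and without an always active Nrf2 in keratinocytes. Members were the genes with a symbol of the claudin (Cldn), desmoglein (Dsg), desmocollin (Dsc), plakophilin (Pkp), connexin (Gja, Gjb, Gjc, Gjd) or zonula occludens (Tjp) families, together with Jup, Dsp, Ocln, F11r, Cdh1 and Perp. Each gene was read from the probe set of highest mean signal among those annotated with that gene alone. This gave 55 genes with 93 probe sets, out of 18193 genes measured.

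Expression arrays were run on 6 female littermates of mixed FVB/N and C57BL/6 background at postnatal day 2.5, with 1 array per mouse. The 3 caNrf2 mice are labelled K5cre-caNrf2 (tg/tg): they carried a constitutively active Nrf2 and a Cre recombinase under the promoter of the keratin 5 gene, a gene of basal keratinocytes and of the outer root sheath of the hair follicle. The 3 control mice are labelled K5cre-wt (tg/wt) and carried the Cre without the active Nrf2. The descriptions of all 6 samples also hold the word weak, whose meaning is not given in the sources used here. Nrf2 is a transcription factor that switches on antioxidant and detoxifying enzymes, and the comparison asks how skin transcripts differ when it is always on in keratinocytes. Array medians lay between 80.7 and 81.9 intensity units, and arrays correlated at 0.9961 or more. Keratinocyte markers were bright on every array, with Krt5 between 13.42 and 13.52 and Krt10 between 14.25 and 14.33 (log2 intensity), so the tissue label fitted its markers.

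Desmosomes are built from cadherins of the desmoglein and desmocollin kind, which bind the neighbouring cell, and a plaque of plakoglobin, plakophilins and desmoplakin, which ties them to keratin filaments. Tight junctions seal the space between cells with claudins and occludin held by zonula occludens scaffolds, and in epidermis they lie in the granular layer. Gap junctions are channels of connexins through which small molecules pass from cell to cell.

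Of the 55 junction genes 0 passed the test between the groups (limma over all genes, with a Benjamini-Hochberg adjusted p below 0.05), where 68 of all 18193 genes, 0.374%, did. The smallest adjusted p of a junction gene was 0.329. Of these genes 25 were higher and 30 lower in caNrf2 skin, and their median log2 difference was -0.011, beside -0.007 over all genes. An unadjusted p below 0.05 was reached by 8 junction genes, beside 8.09% of all genes; 1 of the 8 was higher, beside 3.26%, and 7 were lower, beside 4.82%. The groups did not overlap for 11 of the 55, beside 13.1% of all genes.

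The 35 junction genes at or above the median level of all probe sets (6.34 on the log2 scale) had 95% intervals that all lay within a 1.5-fold change either way, as did those of 98.5% of all genes at that level. For 29 of the 35 the interval lay within a 1.3-fold change, beside 91.1%. These brighter genes had differences between -0.27 and 0.25, a median of 0.02 and 22 of 35 values above 0, where all genes of that level had a median of 0.01 and 55.6% above 0. The other 20 were dimmer, and 4 of those, Cldn11, Cldn34b2, Cldn34c4 and Cldn34d, had mean levels below 3.95, the highest value of 3 Y-linked genes that female skin does not express. Whole skin mixes cell types, so fewer cells of a type and less RNA per cell cannot be told apart for any of these values.

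**Figure D1:**
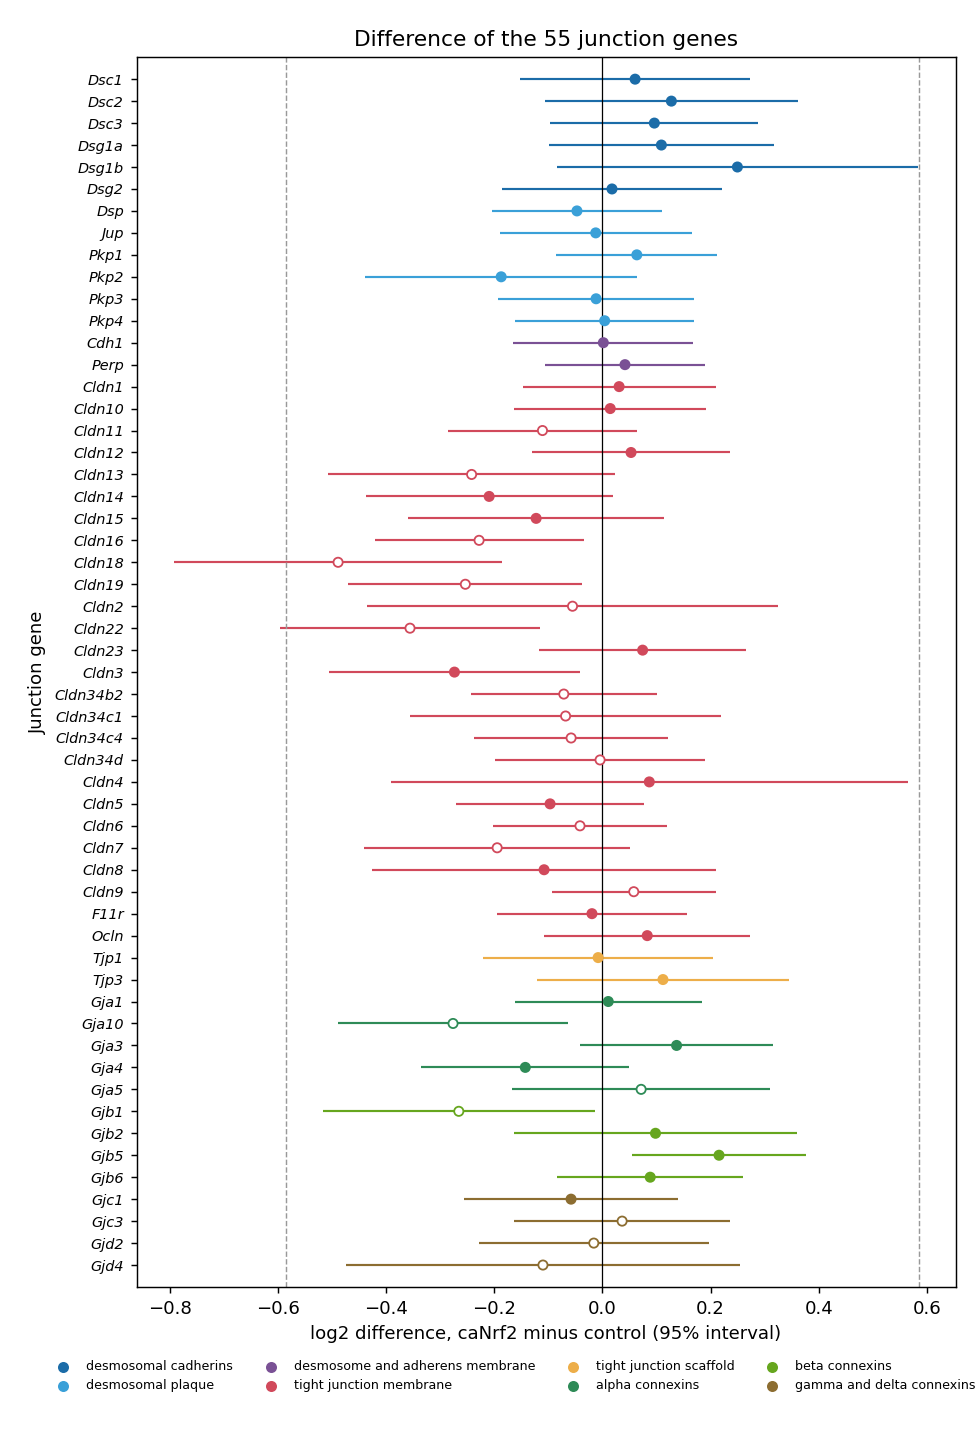
Log2 difference between caNrf2 and control skin (horizontal axis, points) with its 95% interval (bars) for each of the 55 junction genes (vertical axis), coloured by role. Filled points are the 35 genes at or above the median level, open points the 20 dimmer ones, and dashed lines mark a 1.5-fold change. The interval of each filled point stays between the dashed lines, and only those of Cldn18 and Cldn22 cross the left one.

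Each of the 6 desmosomal cadherins measured was slightly higher in caNrf2 skin, as were 55.6% of all genes at or above the median level. The differences were 0.02 to 0.25 (log2), and none passed the test (adjusted p from 0.723 to 0.984). For Dsc1 and Dsg2 the direction depended on caNrf2 array 1, without which they were at -0.03 and -0.08 on the probe sets used. Without that array Dsg1a, Dsc2 and Dsc3 stayed above 0, at 0.01, 0.02 and 0.03, and Dsg1b at 0.15. Dsg1a, a desmoglein of the differentiating layers, measured 11.54, 11.58 and 11.57 (log2 intensity) on controls 1 to 3 and 11.86, 11.50 and 11.64 on caNrf2 arrays 1 to 3. The second caNrf2 array lay below every control array, so the groups overlapped, and the difference was 0.11 ± 0.09 (SE), which ran from 0.01 without caNrf2 array 1 to 0.19 without array 2. Dsg1b, its close copy, measured 8.32, 8.50 and 8.36 on the control and 8.85, 8.23 and 8.86 on the caNrf2 arrays. Here caNrf2 arrays 1 and 3 lay above all controls and array 2 below all of them, and the difference of 0.25 ± 0.15 (95% interval -0.08 to 0.58, adjusted p = 0.723) was the largest positive value among the junction genes. Without caNrf2 array 2 the value was 0.46 and still missed the threshold (adjusted p = 0.114). The probes of these near copies may bind each other's transcripts, which was not tested.

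A similar order of caNrf2 arrays was seen in most of the other cadherins. Dsc1, the desmocollin of the upper layers, measured 12.10, 12.18 and 12.20 on the control and 12.39, 12.02 and 12.24 on the caNrf2 arrays. The difference was 0.06 ± 0.10, and its other probe set, at a mean level of 10.45, gave 0.17. On that probe set the lowest caNrf2 value, 10.3815, lay just above the highest control, 10.3783. Dsc3, the desmocollin of basal cells, measured 11.28, 11.45 and 11.44 on the control and 11.62, 11.37 and 11.46 on the caNrf2 arrays, with a difference of 0.10 ± 0.09 (adjusted p = 0.835). Dsg2, a desmoglein of simple epithelium and of basal and follicle cells, differed by 0.02 ± 0.09 over 6 probe sets that ranged from -0.02 to 0.14. Dsc2 differed by 0.13 ± 0.11, but its other probe set, at a mean level of 6.69, gave -0.11. Array caNrf2 1 was the highest caNrf2 array for 5 of the 6 cadherins and caNrf2 2 the lowest for 5. Relative to the control mean, the 6 genes averaged 0.29, -0.08 and 0.11 on caNrf2 arrays 1, 2 and 3.

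Of the 6 desmosomal plaque genes 2 were higher and 4 lower in caNrf2 skin, and none passed the test. Dsp encodes desmoplakin, the anchor of keratin filaments, and measured 13.35, 13.32 and 13.38 on the control and 13.38, 13.25 and 13.28 on the caNrf2 arrays. Its difference of -0.05 ± 0.07 corresponds to 0.968 of the control level (95% interval 0.868 to 1.08), and its other probe sets gave -0.05 each. Jup, which encodes plakoglobin, the plaque protein shared with adherens junctions, differed by -0.01 ± 0.08 (adjusted p = 0.988). Of the plakophilins, which cluster the cadherins, Pkp3 differed by -0.01 ± 0.08 and Pkp4 by 0.00 ± 0.07.

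Pkp1, the main plakophilin of suprabasal epidermis, was one of 2 bright desmosome genes whose groups did not overlap. It measured 12.72, 12.71 and 12.76 on the control and 12.78, 12.78 and 12.83 on the caNrf2 arrays, and every caNrf2 value lay above every control value. The difference was 0.06 ± 0.07 (1.05-fold, 95% interval 0.943 to 1.16, adjusted p = 0.868). Perp, a membrane protein of desmosomes and a target of p63, was the other: 13.31, 13.36 and 13.33 on the control and 13.38, 13.38 and 13.36 on the caNrf2 arrays, with a difference of 0.04 ± 0.07 (adjusted p = 0.916). Its lowest caNrf2 value, 13.3636, lay only just above its highest control value, 13.3622. Among all genes at or above the median level, 8.08% had caNrf2 arrays wholly above the controls. Pkp2, a plakophilin of simple and follicle epithelium and heart, leaned the other way, at 7.36, 7.27 and 7.22 on the control and 7.34, 7.10 and 6.85 on the caNrf2 arrays. Only caNrf2 arrays 2 and 3 lay below the controls (difference -0.19 ± 0.11, adjusted p = 0.724). The value was -0.06 without caNrf2 array 3 and -0.31 without array 1. Its other probe sets, all of the specific kind, gave -0.07, -0.31 and 0.10, at mean levels of 6.86, 4.74 and 3.26. Cdh1, which encodes E-cadherin, the adherens junction cadherin of epithelium, differed by 0.00 ± 0.07 (95% interval -0.16 to 0.17).

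Of the 26 tight junction membrane genes 7 were higher and 19 lower in caNrf2 skin, and 12 were at or above the median level. Among all genes 55.6% were higher at or above that level and 31.8% below it. Cldn1, the claudin whose loss opens the epidermal water barrier in mice, measured 11.07, 11.22 and 11.12 on the control and 11.24, 11.20 and 11.05 on the caNrf2 arrays. The groups overlapped fully, with a difference of 0.03 ± 0.08 (95% interval -0.15 to 0.21, adjusted p = 0.962). Ocln, which encodes occludin, differed by 0.08 ± 0.09, F11r, which encodes the adhesion molecule JAM-A, by -0.02 ± 0.08, and the scaffold gene Tjp1, which encodes ZO-1, by -0.01 ± 0.10. Tjp3, which encodes ZO-3, differed by 0.11 ± 0.10 (adjusted p = 0.845). Cldn5, the claudin of endothelium, differed by -0.10 ± 0.08 (adjusted p = 0.808). Beside it, 11 of 13 endothelial markers were lower in caNrf2 skin, none passed the test, and their summed level was 12.48 to 12.55 on the control and 12.28 to 12.53 on the caNrf2 arrays (log2); their part in the Cldn5 value was not tested.

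The widest scatter of any junction gene was that of Cldn4, a claudin of the granular layer and of glandular epithelium. It measured 10.77, 10.49 and 10.25 on the control and 10.91, 10.85 and 10.01 on the caNrf2 arrays. Arrays caNrf2 1 and 2 were the highest and caNrf2 3 the lowest of all 6, and the difference was 0.09 ± 0.21 (95% interval -0.39 to 0.56). Without caNrf2 array 3 it was 0.38, again short of the threshold. Cldn8, another epidermal claudin, also had its lowest value on that array, at 8.02, 8.13 and 8.17 on the control and 8.33, 8.03 and 7.64 on the caNrf2 arrays (difference -0.11 ± 0.14).

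Cldn3 was the bright junction gene with the largest negative difference. It measured 8.22, 8.30 and 8.24 on the control and 8.06, 8.14 and 7.73 on the caNrf2 arrays. All caNrf2 values lay below all control values, as for 4.28% of genes of that level, and the third array was the lowest. The difference was -0.27 ± 0.10 (0.827 of the control level, 95% interval 0.705 to 0.972), and it did not pass the test (unadjusted p = 0.0252, adjusted p = 0.533). Without caNrf2 array 3 it was -0.15. Its other 3 probe sets gave -0.23, -0.23 and -0.25, and the groups overlapped on the probe set with a mean level of 7.86. All 4 probe sets of Cldn3 are of kinds that can bind several transcripts. On the same array, 17 hair follicle markers had a summed level of 15.94 (log2). The controls had 16.18 to 16.22, and the first and second caNrf2 arrays 16.32 and 16.20. Of the 17, 13 were lower in caNrf2 skin and none passed the test. Not all shared the low value on array 3, where Sox9 (8.90) and Lhx2 (10.85) lay above every control. The part of these markers in the values of Cldn3, Cldn4, Cldn8 and Pkp2 was not tested. Cldn14, a less bright claudin, measured 6.84, 6.75 and 6.68 on the control and 6.67, 6.66 and 6.31 on the caNrf2 arrays. Its difference was -0.21 ± 0.10 (adjusted p = 0.652), the groups were separated by the second decimal alone, and without caNrf2 array 3 the value was -0.09.

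**Figure D2:**
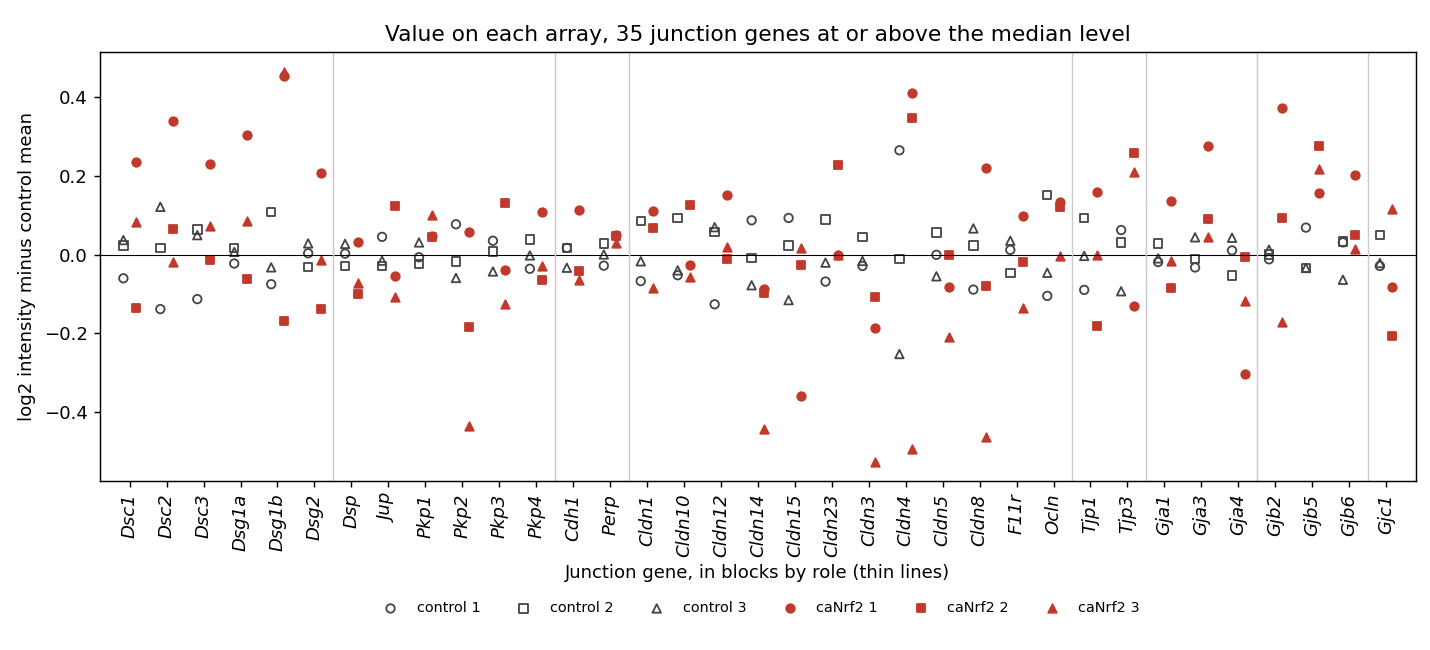
Value on each array minus the mean of the 3 control arrays (vertical axis, log2 intensity) for the 35 junction genes at or above the median level (horizontal axis), with open symbols for control and filled symbols for caNrf2 arrays 1 to 3. The caNrf2 1 circles lie on top for 5 of the 6 desmosomal cadherins on the left, and the caNrf2 3 triangles lie lowest for Cldn3, Cldn4, Cldn8 and Pkp2.

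Among dim claudins most values were lower in caNrf2 skin. Cldn18, a claudin of stomach and lung, had the smallest p of all junction genes: 4.74, 4.97 and 4.56 on the control and 4.56, 4.05 and 4.19 on the caNrf2 arrays. The lowest control lay above the highest caNrf2 array only in the next decimal, and the difference was -0.49 ± 0.14 (unadjusted p = 0.00492, adjusted p = 0.329). The probe set used is of a kind that can bind several transcripts. The second Cldn18 probe set differed by 0.05, but its mean level of 3.52 was below the highest value of the Y-linked genes. Cldn22 differed by -0.36 ± 0.11 (adjusted p = 0.383), Cldn19, a claudin of kidney and Schwann cells, by -0.25 ± 0.10 and Cldn16, a kidney claudin, by -0.23 ± 0.09 (adjusted p = 0.533 for both). Cldn7 differed by -0.19 ± 0.11, and by -0.06 without caNrf2 array 3. Beside these, 4 of 6 markers of simple and glandular epithelium were lower and 2, Krt8 and Krt18, were higher, by 0.09 and 0.13. None of the 6 passed the test, and only 2 were at or above the median level. The summed level of the 6 was 9.05 to 9.25 on the control and 8.98 to 9.19 on the caNrf2 arrays (log2). The part of these markers in the claudin values was not tested. Of the 20 junction genes below the median level 17 were lower and 3 higher, with a median of -0.09. Of all 6441 genes below that level 31.8% were higher, and their median was -0.05. The caNrf2 arrays lay wholly below the controls for 5 of the 20, beside 11.6% of genes of that level.

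**Figure D3:**
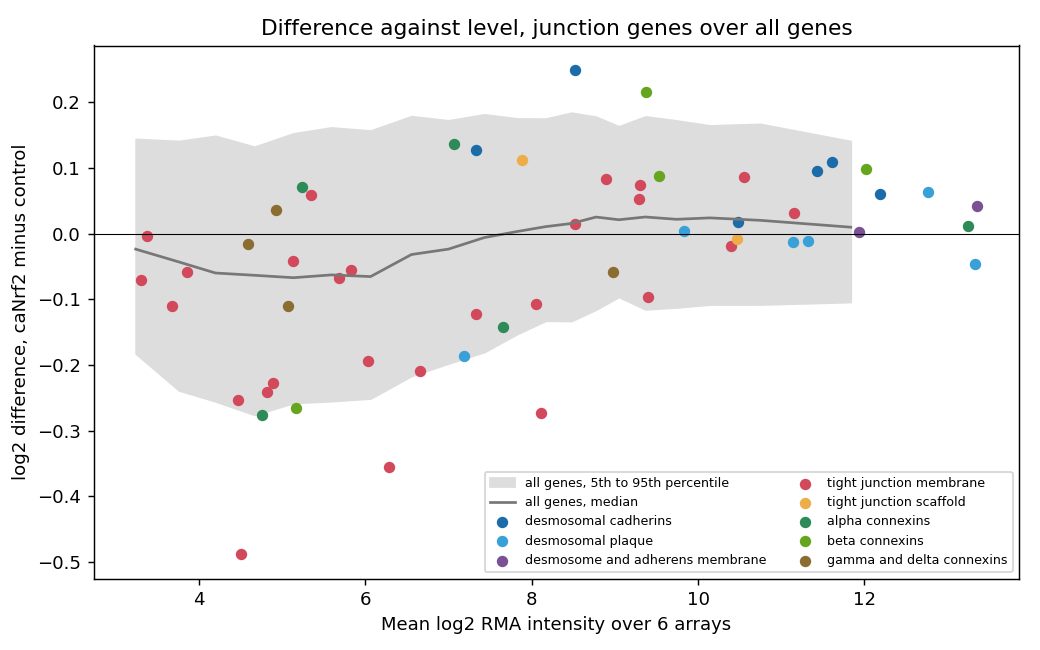
Log2 difference (vertical axis) against the mean log2 intensity over 6 arrays (horizontal axis) for the 55 junction genes (points, by role), over all genes in 20 bins of equal number (grey band, 5th to 95th percentile; line, median). The grey median dips below 0 for dim genes, and Cldn18, Cldn22 and Cldn3 lie farthest below the band while Dsg1b and Gjb5 lie above it.

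Of the 4 beta connexins 3 were higher and 1 lower in caNrf2 skin, and none passed the test. Gjb5, a connexin of the upper epidermis and of trophoblast, measured 9.33, 9.23 and 9.23 on the control and 9.42, 9.54 and 9.48 on the caNrf2 arrays. Each caNrf2 array exceeded each control array, and the spread was alike in both groups. The difference of 0.22 ± 0.07 (1.16-fold, 95% interval of the log2 difference 0.06 to 0.38) did not pass over all genes (unadjusted p = 0.0132, adjusted p = 0.448). Gjb2, the connexin that is induced in hyperproliferative epidermis, measured 11.96, 11.97 and 11.98 on the control and 12.34, 12.06 and 11.80 on the caNrf2 arrays. The controls were nearly identical while the caNrf2 arrays lay above and below them, and the difference was 0.10 ± 0.12 (adjusted p = 0.884). Gjb6, a partner of Gjb2 in epidermis and inner ear, differed by 0.09 ± 0.08 (adjusted p = 0.827). Gjb1, the connexin of liver and Schwann cells, was dim and differed by -0.27 ± 0.11 (adjusted p = 0.595). The probe set used is of a kind that can bind several transcripts. The specific one gave -0.06, but its mean level of 3.54 was below the highest value of the Y-linked genes.

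Gja1, the most widely expressed connexin and that of basal and spinous keratinocytes, measured 13.22, 13.27 and 13.23 on the control and 13.38, 13.16 and 13.23 on the caNrf2 arrays. The difference was 0.01 ± 0.08 (95% interval -0.16 to 0.18), and its other 5 probe sets ranged from -0.05 to 0.16. Gja4, a connexin of vascular endothelium, differed by -0.14 ± 0.09 (adjusted p = 0.725). Gja3, the lens connexin, differed by 0.14 ± 0.08 without overlap (adjusted p = 0.711), and the dim Gja10 by -0.28 ± 0.10, also without overlap (adjusted p = 0.472). Both separations were slight. The lowest caNrf2 value of Gja3 was 7.042 and its highest control 7.041, and its other probe set overlapped, with a difference of 0.11. The highest caNrf2 value of Gja10 was 4.828 and its lowest control 4.829. Gjc1, a connexin of vascular smooth muscle and heart, differed by -0.06 ± 0.09. The other dim connexins, Gja5, Gjc3, Gjd2 and Gjd4, lay between -0.11 and 0.07.

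Scatter between mice was wider in the caNrf2 group for most junction genes. Among the 35 brighter genes the SD of the 3 caNrf2 arrays exceeded that of the 3 controls for 32, against 72.5% of all genes at that level. The median ratio of the SDs was 2.47 for the junction genes and 1.63 for all genes of that level, with median SDs of 0.06 in control and 0.13 in caNrf2 skin for the former. For Gjb2 the SD was 0.01 in control and 0.27 in caNrf2 skin, and for Cldn4 it was 0.26 and 0.50. Perp, Ocln and Cldn12 were the exceptions, with the smaller SD in caNrf2 skin. Array caNrf2 1 was the highest of the 3 for 22 of the 35 junction genes, beside 26.2% of all genes of that level, and caNrf2 3 the lowest for 19, beside 25.3%. Relative to the control mean the 35 genes averaged 0.09, 0.01 and -0.06 on caNrf2 arrays 1, 2 and 3. The averages of 17 hair follicle markers, at 0.09, 0.01 and -0.29, and of 8 melanocyte markers, at 0.09, 0.01 and -0.20, had the same order of arrays. Single markers did not all have it. The exceptions were Krt17, Krt79, Lhx2, Shh, Sox9, Foxn1 and Tchh among the former and Pmel, Mitf and Slc45a2 among the latter. Basal keratinocyte markers, at 0.02, 0.12 and 0.04, and suprabasal markers, at -0.01, 0.04 and 0.06, did not have that order. Neither did the averages of the other cell type lists, such as skeletal muscle, at -0.11, 0.09 and 0.18, and endothelium, at -0.15, -0.01 and -0.11. The lists with the same order were picked out after the values were seen. The part of any of these cell types in the junction gene values was not tested. These shares describe these mice, and genes on the same array are not independent of each other.

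**Figure D4:**
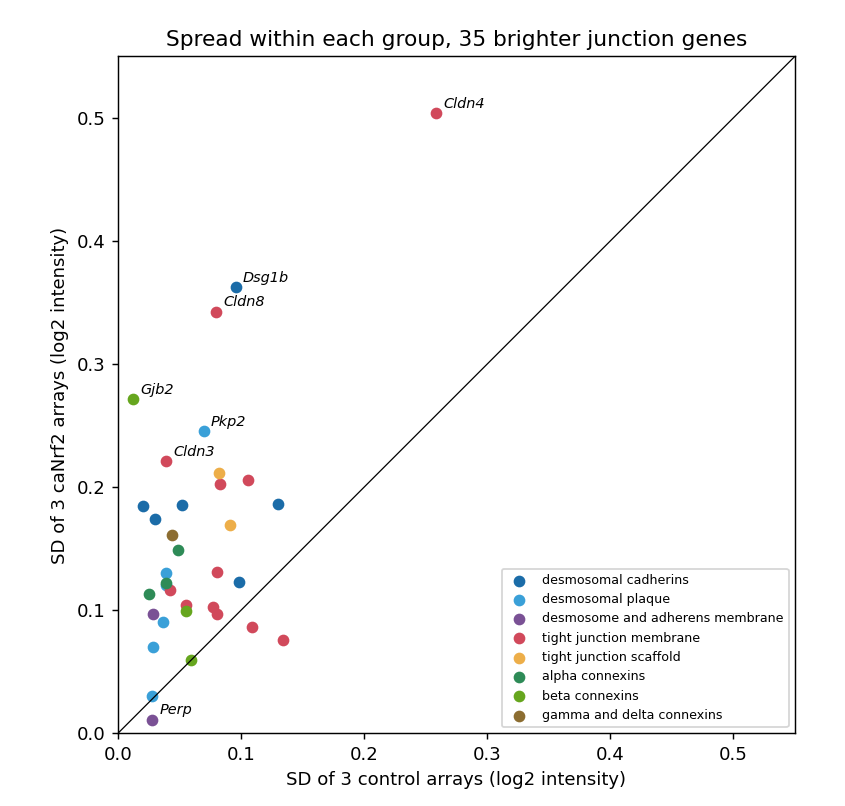
SD of the 3 caNrf2 arrays (vertical axis) against the SD of the 3 control arrays (horizontal axis), in log2 intensity, for the 35 junction genes at or above the median level, with the line of equality. All but 3 points lie above the line, Cldn4 farthest out at 0.26 and 0.50.

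Promoter windows were searched for TGANNNNGC, the core of the antioxidant response element to which Nrf2 binds with small Maf proteins, on both strands. The windows are those of RefSeq on build GRCm38.p6, from 250 bases before to 50 after each gene's start. Of the 37 junction genes listed there, 16 held the core, or 43.2%, beside 45% of 27025 genes. Those 16 had a median log2 difference of -0.04 (from -0.36 to 0.14), and the 21 without it -0.02. A narrower form, TGACNNNGC, all of whose matches are also matches of the first, was held by 3 junction genes (8.11%, beside 14% of all genes). A match is a description of the letters and no evidence of binding. The stretches below are those of all 10 junction genes at or above the median level that held the core; they show how its letters and place vary, and Cldn15 holds the narrower form. Each is read 5′ to 3′ on the gene's strand upstream of its start, with the match in capitals; matches that begin with GC are on the opposite strand.
Cldn1 (chr16:26371944-26371984, minus strand): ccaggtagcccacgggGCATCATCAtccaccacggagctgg
Cldn14 (chr16:94008858-94008898, minus strand): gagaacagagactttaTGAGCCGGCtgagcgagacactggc
Cldn15 (chr5:136967637-136967677, plus strand): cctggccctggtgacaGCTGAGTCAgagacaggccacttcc
Gja1 (chr10:56377174-56377214, plus strand): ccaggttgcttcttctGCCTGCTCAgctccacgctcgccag
Gja3 (chr14:57057892-57057932, minus strand): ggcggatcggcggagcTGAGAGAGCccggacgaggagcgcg
Gjb6 (chr14:57133660-57133700, minus strand): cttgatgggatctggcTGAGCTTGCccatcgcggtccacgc
Jup (chr11:100397842-100397882, minus strand): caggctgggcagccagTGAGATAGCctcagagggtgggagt
Pkp4, first match (chr2:59160667-59160707, plus strand): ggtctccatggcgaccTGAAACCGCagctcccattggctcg
Pkp4, second match (chr2:59160687-59160727, plus strand): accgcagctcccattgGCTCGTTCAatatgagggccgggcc
Tjp1 (chr7:65371253-65371293, minus strand): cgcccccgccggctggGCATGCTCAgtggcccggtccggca
Tjp3 (chr10:81291417-81291457, minus strand): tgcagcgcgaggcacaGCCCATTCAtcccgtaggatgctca
The match lies from 33 bases before the start in Tjp1 to 216 in Cldn15. The log2 differences of these 10 genes ran from -0.21 for Cldn14 to 0.14 for Gja3, with 6 above 0 and 4 below; Cldn15, a claudin of the gut, differed by -0.12 ± 0.11 (adjusted p = 0.826). The other 6 genes with the core were dim, and their differences ran from -0.36 for Cldn22 to -0.07 for Cldn34b2.

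Of the genes known to work with these junctions, in lists given next, none passed the test. The 15 measured partners of the adherens junction, such as catenins and nectins, had a median of 0.00, with 7 higher and 8 lower. Other tight junction and polarity genes numbered 26, with a median of 0.00 and a range from -0.22 for Prkcz to 0.21 for Prkci, both atypical protein kinases C. The 14 plakins, transglutaminases and corneodesmosome genes had a median of 0.02 and ranged up to 0.25 for Tgm3, a transglutaminase of hair and epidermis. Pannexins and gap junction partners numbered 10, with a median of -0.01. The 17 regulators of epithelial junction genes, such as Trp63 and Grhl3, had a median of 0.01, and the smallest adjusted p among them was 0.282. Basal keratinocyte markers, 11 in number, had a median of 0.05 and suprabasal markers, also 11, a median of 0.03; 10 and 11 of them were higher, and none passed the test.

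A further 38 probe sets covered 23 of the 55 genes a second time or more, and 11 of these, in 9 genes, had the opposite sign to the one used. Tested together with all 45037 probe sets, of which 0.240% passed, none of these 93 did (smallest adjusted p = 0.338). Only the second Cldn18 probe set differed by more than 0.3 from the one used.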

How the data were processed

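Whole skin RNA was measured on 3 control and 3 caNrf2 arrays, from 2 µg of RNA each per the labels' protocols. The deposited table holds 1 linear intensity per probe set and array, made with RMA (background correction, quantile normalisation, probe set summary) per the submitters' processing notes; the sources used here do not give its version or software. RMA equalises the arrays and compresses folds near background, so a shift shared by most genes is not seen. The number of arrays limits the precision.

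Intensities were converted to log2 without a pseudocount. The 64 Affymetrix controls among 45101 probe sets were not tested; of the remaining 45037, 34945 carry 1 gene symbol, 932 several and 9160 none, and only the first were named. Gene identifiers of 34741 matched RefSeq (GRCm38.p6), and 0 symbols changed. There were 0 columns of other series. Of the junction probe sets used, 11 are of kinds (suffix _a_at, _s_at or _x_at) that can bind several transcripts.

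The test was limma 3.58.1 (R 4.3.3; lmFit, eBayes, no block or covariate) over 18193 genes, with p-values adjusted by Benjamini and Hochberg and called below 0.05. Differences are caNrf2 minus control, with SE and 95% intervals from that fit. The fit was tested on simulated data. The members and lists were chosen with earlier results of these data known. Named were members called, the 8 with the smallest p, the 4 largest differences each way among the brighter ones, the brightest of each role, and a set known in epidermis, some of which are not reported here. Names outside that rule (Pkp4, Cldn12, Cldn15 and dim members listed) were chosen after their values were seen. Alternatives were a replicate block, 2 scalings, a pseudocount of 16, a filter on low values, 2 other choices of probe set, 3 variance models, a test against a fold of 1.2 and leaving out each array.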

Additional observations from a re-analysis of the deposited data

How the results depend on the processing

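No junction gene passed the threshold under any of the 17 alternatives; the smallest adjusted p was 0.0726, for Cldn18 without caNrf2 array 1. Over all genes 68 were called, 28 when tested against a fold of 1.2 and between 41 and 89 with 1 array left out (41, 43 and 45 without control array 1, 2 or 3). The median difference of the junction genes, -0.011, ranged from -0.051 to 0.021 with 1 array left out, the lowest without caNrf2 array 1. Of 37 genes followed, 23 kept their sign throughout and 14 did not. With some array left out, 30 of the 37 moved by over 1.5 times or changed sign, and 7 did not. With array weights the differences were -0.028 for Cdh1, -0.019 for Cldn1, -0.14 for Cldn4, -0.0043 for Dsg2, -0.0061 for Gja1, -0.020 for Gjb2 and 0.010 for Gjc1. With a further quantile normalisation they were -0.026 for Cdh1 and -0.017 for Dsg2. With specific probe sets preferred the value was 0.049 for Cldn18, read there from its second probe set, whose level is that of silent genes. With 1 array left out, differences ran from -0.054 to 0.036 for Cdh1, -0.0085 to 0.089 for Cldn1, -0.074 to 0.38 for Cldn4, -0.27 to 0.070 for Cldn8, -0.026 to 0.16 for Dsc1, -0.076 to 0.096 for Dsg2, -0.077 to 0.040 for F11r, -0.051 to 0.059 for Gja1, -0.039 to 0.23 for Gjb2, -0.14 to 0.016 for Gjc1, -0.080 to 0.035 for Jup, -0.083 to 0.045 for Pkp3 and -0.091 to 0.078 for Tjp1. The cause of these changes was not tested.

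With the replicate number as a block 61 genes were called and 0 junction genes. Deviations of same-numbered arrays correlated at -0.195, -0.032 and 0.036, so the numbers were not taken to pair the mice. Signal near background limits the dim claudins and connexins, where RMA compresses folds.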
